A study of Mus musculus with 4 samples.

Results

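The 10 genes described here belong to the class II pathway of antigen presentation. They encode the chains of the major histocompatibility complex (MHC) class II molecules (*H2-Aa*, *H2-Ab1* and *H2-Eb1*), the invariant chain (*Cd74*) and the molecule that exchanges peptides (*H2-DMa* and *H2-DMb1*). The others encode a chain of its inhibitor (*H2-Oa*), the class II transactivator (*Ciita*) and a pair of costimulators (*Cd86* and *Cd80*). All 10 were chosen by name. Every probe that carried one of these names in the array files was taken, which gave 14 probes for 10 of the 29977 genes named on the array. Class II molecules hold peptides of ingested proteins on the cell surface, where CD4 T cells read them. An α and a β chain assemble on the invariant chain in the endoplasmic reticulum, proteases of the endosome cut the invariant chain down to a short peptide, and H2-DM removes that peptide so that others can bind. The genes are most active in dendritic cells, B cells and activated macrophages, and in the cochlea class II protein is known from resident macrophages.

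Cochlear RNA of 4 groups of B6J mice was measured. OHC-TRECK mice (the *Prestin*-*hDTR* line) carry the human receptor of diphtheria toxin (DT) under the promoter of prestin, the motor protein of outer hair cells (OHCs), so that DT kills these cells, and wild-type mice lack the transgene. Both genotypes were studied untreated and DT-treated, the latter 7 days after 50 μg/kg of DT, at an age of 5 weeks. Each group was 1 pool (n = 8, from 4 females and 4 males, where it is unclear whether mice or cochleae were counted) on 1 single-colour array, and the transgenic mice came from the line of 1 founder. OHC markers were low in DT-treated OHC-TRECK mice, where the log2 ratio over untreated OHC-TRECK mice was -2.37 for *Ocm* and -3.10 for *Strc*, and *Coch*, which marks the cochlea, lay between 5.95 and 6.06 on every array.

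Values are normalized log2 signals, that is, log2 of the intensity after division by the 75th percentile of the array, so that 0 is the brightness of the probe at that percentile. They are given in the order untreated wild-type, DT-treated wild-type, untreated OHC-TRECK and DT-treated OHC-TRECK mice. With 1 array per group there is no test and no replicate check, and precision is limited by how few arrays there are. Repeated spots of a probe on 1 array had a median SD of 0.061 to 0.071, which gives a log2 ratio of 2 arrays an error of 0.093 to 0.10 from the spots alone. A gene was called at 2-fold or more, or at 1.5-fold or more, and compared if either array had its probe well above background. A dim signal on the other array was replaced by that array's floor, its lowest signal well above background, where it lay under the floor. A fold against a dim signal is given as a lower bound.

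*H2-Aa* and *H2-Ab1* encode the α and the β chain of the I-A molecule. The signal of *H2-Aa* (chr17:34421285-34421344, mm9) was -2.71, -2.49, -3.07 and -2.33 in the 4 groups. The *H2-Ab1* probe used for the gene (chr17:34406296-34406355) gave 0.46, 0.79, 0.13 and 0.94. Both chains were lowest in untreated OHC-TRECK mice and highest in DT-treated OHC-TRECK mice, with DT-treated wild-type mice close below the highest. From untreated to DT-treated OHC-TRECK mice *H2-Aa* was 1.67-fold and *H2-Ab1* 1.75-fold higher. Of all genes with a ratio in this comparison, 4.25% had one at least as high as that of *H2-Aa*, and 3.81% one at least as high as that of *H2-Ab1*. Over DT-treated wild-type mice the same chains were 1.11-fold and 1.11-fold higher, which is little more than the error of the spots, and 23.9% and 25.0% of genes had ratios at least as high.

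The second *H2-Ab1* probe overlaps the first by 51 of its 60 bases, with 1 base that differs, so it repeats much of the same measurement. Its signals were 0.54, 0.74, 0.10 and 0.88, in the same order of groups. The probes gave log2 ratios of 0.80 and 0.78 for DT-treated over untreated OHC-TRECK mice and of 0.15 and 0.14 for DT-treated OHC-TRECK over DT-treated wild-type mice. They differed more for DT-treated over untreated wild-type mice, at 0.33 and 0.20.

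*H2-Eb1* encodes the β chain of the other class II molecule, I-E. Its signal (chr17:34453075-34453134) was 0.38, 0.59, 0.10 and 0.68. The order of the groups was again that of *H2-Aa*, over a smaller range of 0.58. B6 mice carry a class II haplotype in which *H2-Ea*, the α chain partner, is not transcribed, and the *H2-Ea* probe was dim on all 4 arrays. The *H2-Eb1* log2 ratios of 0.58 over untreated OHC-TRECK mice and 0.10 over DT-treated wild-type mice therefore belong to a chain that lacks this partner.

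The invariant chain gene *Cd74* (chr18:60972075-60972132) gave -0.73, -0.27, -0.91 and -0.16. It had the highest ratio of the members for DT-treated over untreated wild-type mice, 1.38-fold, which 3.85% of genes reached. DT-treated OHC-TRECK mice were 1.68-fold above untreated OHC-TRECK, 1.49-fold above untreated wild-type and 1.08-fold above DT-treated wild-type mice. For *Cd74* and the 3 chains the DT-treated groups thus lay above both untreated groups, and the DT-treated groups differed from each other by 0.10 to 0.15 on the log2 scale. The gap between the untreated groups, from 0.17 for *Cd74* to 0.37 for *H2-Aa*, was the wider one and ran the other way, with OHC-TRECK mice below wild-type mice.

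**Figure D1:**
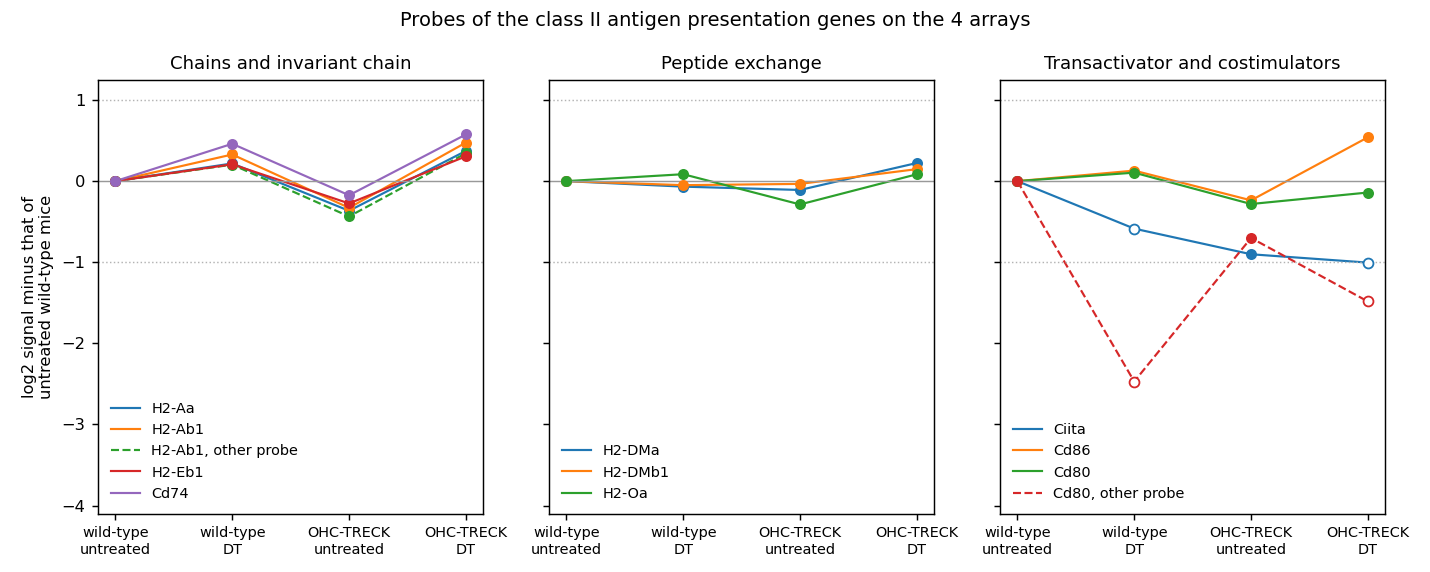
Signal of each member's probes on the 4 arrays, as the log2 signal minus that of untreated wild-type mice, for the chains with *Cd74*, the genes of peptide exchange, and *Ciita* with the costimulators. Filled points are well above background, open points are not, dashed lines are further probes of a gene, dotted lines mark 2-fold, and the 2 probes that were dim on all arrays are left out; the chains and *Cd74* run together, from -0.44 to 0.58, while *H2-DMa* and *H2-DMb1* stay within -0.11 and 0.22.

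H2-DM, the peptide exchange factor, is made of *H2-DMa* and *H2-DMb1*. *H2-DMa* had signals of -1.66, -1.73, -1.77 and -1.44 (its probe spans chr17:34274300-34274863, so that it crosses an intron). *H2-DMb1* (chr17:34297109-34297168) had signals of 0.80, 0.75, 0.76 and 0.94. Unlike the chains, both were nearly level over the 3 control arrays, within 0.11 for *H2-DMa* and 0.05 for *H2-DMb1*, and stood highest in DT-treated OHC-TRECK mice alone. Their log2 ratios of DT-treated over untreated mice were 0.33 and 0.18 in OHC-TRECK mice and -0.07 and -0.05 in wild-type mice, and the wild-type values are within the error of the spots. Over DT-treated wild-type mice *H2-DMa* was 1.22-fold and *H2-DMb1* 1.15-fold higher, more than any of the chains or *Cd74*. A further *H2-DMb1* probe was dim on all 4 arrays. It matches the promoter window of the gene with 2 differing bases, and 27 of its 60 bases lie before the annotated start of the transcript.

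*H2-Oa* encodes the α chain of H2-O, which restrains H2-DM and is found mainly in B cells. Its probe (chr17:34232033-34232092) was well above background on every array but close to the floor, at -5.29, -5.20, -5.58 and -5.20. The low value of untreated OHC-TRECK mice made up its range of 0.37, and the other 3 groups lay within 0.09, but under quantile normalization DT-treated wild-type and DT-treated OHC-TRECK mice stood 0.24 and 0.27 above untreated wild-type mice. No order of those 3 groups can be read, and the log2 ratio of DT-treated OHC-TRECK over DT-treated wild-type mice, at 0.00, took either sign under other settings, from -0.03 to 0.04.

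*Ciita* encodes the coactivator without which class II genes stay silent. Its probe (chr16:10526568-10526627) gave -4.87 in untreated wild-type and -5.77 in untreated OHC-TRECK mice, and it was not well above background in either DT-treated group, where it measured -5.46 and -5.87. It was thus 1.87-fold lower in untreated OHC-TRECK than in untreated wild-type mice, and at least 1.5-fold lower in DT-treated wild-type mice, but with another background correction (normexp) the log2 ratios were -0.52 and -0.31, both short of 1.5-fold. No fold can be given for DT-treated over untreated OHC-TRECK mice, since the untreated signal lies under the floor of the DT-treated array. The DT-treated arrays had fewer probes well above background, 62.5% and 62.2% against 67.0% and 70.6%, and higher floors, and the part of this in the *Ciita* values was not tested. The probe is also of low complexity: 65% of its bases are A, and 44 of its last 45 are A or C. Between the untreated groups, where the probe was well above background, *Ciita* was lower in OHC-TRECK mice, as the chains were. Whether it ran with the chains in DT-treated mice cannot be read from dim signals of a probe near its limit.

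CD86 and CD80 are the ligands through which a presenting cell gives T cells their second signal. *Cd86* (chr16:36603961-36604020) gave -3.36, -3.23, -3.60 and -2.82. Its order was that of the chains, but it stood further apart in DT-treated OHC-TRECK mice, 1.71-fold above untreated OHC-TRECK, 1.45-fold above untreated wild-type and 1.33-fold above DT-treated wild-type mice. The last of these was the highest ratio of the 9 members compared, and 7.22% of genes reached it. In wild-type mice DT-treated and untreated groups differed by 0.13. A second *Cd86* probe was dim on all 4 arrays.

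*Cd80* did not follow *Cd86*. The probe used for the gene (chr16:38486772-38486831) gave -2.44, -2.33, -2.72 and -2.58, so that the wild-type groups were the higher ones. A second probe (chr16:38479343-38479402) was well above background in the untreated groups only, at -4.88 and -5.58, and measured -7.35 and -6.36 in the DT-treated groups. The probes thus disagreed on DT: the first had a log2 ratio of 0.10 for DT-treated over untreated wild-type mice, whereas the second was at least 1.52-fold lower. The second probe, on the plus strand, is shown as the array files give it, because the direction of *Cd80* depends on whether it is taken.
*Cd80*, second probe: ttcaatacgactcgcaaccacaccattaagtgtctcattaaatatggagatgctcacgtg

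Read as counts, no member was called at 2-fold in any of the 5 comparisons, which share arrays with each other. Between DT-treated and untreated OHC-TRECK mice, 0 of 10 members were called at 2-fold in either direction, against 2.71% of 21445 genes higher and 1.41% lower. At 1.5-fold, 4 of 10 were higher (*H2-Aa*, *H2-Ab1*, *Cd74* and *Cd86*) and 0 lower, against 5.10% and 3.73% of genes, and *H2-Eb1*, with a log2 ratio of 0.581, lay just under the bound of 0.585 and passed it with normexp (0.604) and in the deposited value table (0.596). All 9 members with a ratio were above 0, with a median log2 ratio of 0.58, where the median of all genes was -0.01 and 47.5% were above 0. In *Cd80* this sign turned when its probes were averaged, to a log2 ratio of -0.32. The second probe was dim and under the floor in DT-treated OHC-TRECK mice, so that turn gives no direction.

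Between DT-treated OHC-TRECK and DT-treated wild-type mice, 0 of 9 members were called at 2-fold, against 1.52% of genes higher and 1.94% lower. At 1.5-fold 0 were called as well, where 4.12% of genes were higher and 4.61% lower. The median log2 ratio of the members was 0.15, that of all genes 0.01, and 7 of 9 members were above 0, where 52.1% of all genes were. The others were *H2-Oa*, whose sign turned with the setting, and *Cd80*, which turned from -0.24 to 0.37 when its probes were averaged. The second *Cd80* probe was dim on both arrays, so that turn gives no direction. This is the comparison in which both groups received DT and differ by genotype.

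Against untreated wild-type mice, 0 of 10 members were called in DT-treated OHC-TRECK mice at 2-fold, beside 2.11% of genes higher and 2.05% lower, or at 1.5-fold, beside 4.69% and 6.00%. The 0 at 1.5-fold did not hold under every setting. Scaling to the median put *Cd74* at 0.638 and *Cd86* at 0.603. Quantile normalization put *Cd86* at 0.591, and the deposited value table put *Cd74* at 0.592. The mean of probes put *Cd80* at -0.812, and *Ciita* was at -1.004 without a floor. The *Cd80* and *Ciita* values use dim signals under the floor, so they give no exact fold. The median log2 ratio of the members was 0.26. In DT-treated wild-type mice 0 of 10 were called at 2-fold, beside 1.55% of genes higher and 1.12% lower. *Cd80* turned from 0.10 to -1.18, past 2-fold, when its probes were averaged. That value uses the second probe's dim signal under the floor, for which only a bound of 1.52-fold lower can be given. At 1.5-fold 0 members were higher, beside 3.07%, and 1 (*Ciita*) was lower, beside 2.87%. That call rests on a dim signal and a log2 ratio of -0.5855 against a bound of 0.5850, and it was lost with normexp (-0.31), with each other scaling, in the deposited value table and where genes had to be well above background on all arrays. The median of the members was 0.12, and that of the chains and *Cd74* 0.27.

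In untreated OHC-TRECK against untreated wild-type mice, 0 of 10 members were called at 2-fold, beside 1.02% of genes higher and 2.44% lower. At 1.5-fold 0 were higher, beside 2.36%, and 1 (*Ciita*) was lower, beside 4.66%, a call that was lost with normexp (-0.52) and where genes had to be well above background on all arrays. All 10 were below 0, with a median of -0.28, where 46.4% of all genes were above 0, although *H2-DMb1*, at -0.03, turned to 0.04 when arrays were scaled to the median. The untreated transgenic pool was thus the low point of most members before any DT was given, and for the chains, *Cd74* and *Cd86* the ratios of DT-treated OHC-TRECK mice over it were larger than those over either wild-type pool.

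The rise from untreated to DT-treated mice can also be set between the genotypes. It was larger in OHC-TRECK than in wild-type mice for each of the 9 members measured on all arrays, by 0.04 for *Cd80*, which is within the error of the spots, and by 0.52 for *H2-Aa*, 0.48 for *H2-Ab1*, 0.37 for *H2-Eb1*, 0.29 for *Cd74* and 0.65 for *Cd86* on the log2 scale. The median over the 9 was 0.37, and over the 18232 genes measured on all arrays it was 0.02, with an SD of 0.37 between genes. With 1 array per group this difference was not tested.

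Several other genes of the pathway were measured. Counts in the lists that follow stand beside the share of all genes. In DT-treated over untreated OHC-TRECK mice, 2.71% were called 2-fold higher and 1.41% lower, so a single call in a short list says little. Among 16 genes of class II peptide loading and turnover, 14 were compared between DT-treated and untreated OHC-TRECK mice, 1 was called higher at 2-fold and 0 lower, and the median log2 ratio was 0.17. The gene called was *Ctss*, the protease that makes the last cuts in the invariant chain. Its signal was 2.57, 2.33, 2.24 and 3.33, which is 2.13-fold above untreated OHC-TRECK and 1.70-fold above untreated wild-type mice, and just short of 2-fold above DT-treated wild-type mice. *Ctss* was highest in DT-treated OHC-TRECK mice and lower in DT-treated than in untreated wild-type mice, where the chains were higher, and its log2 ratio of -0.33 for untreated OHC-TRECK over untreated wild-type mice lay in the range of the chains. *Marchf1*, a ligase that removes class II from the surface, had the lowest ratio over untreated wild-type mice, -0.82, but its other probe disagreed, at 0.70 against -0.24 over untreated OHC-TRECK mice. *H2-Eb2*, a further class II β chain, had the lowest over untreated OHC-TRECK mice, at least 1.49-fold lower, with a dim DT-treated signal. Unlike the 3 chains, it was higher in untreated OHC-TRECK than in untreated wild-type mice, by 0.30.

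Of 13 factors that act on class II promoters or on *Ciita*, 12 were compared over untreated OHC-TRECK mice, with a median log2 ratio of -0.06 and 1 called higher at 2-fold. This was *Irf8*, a factor of myeloid and B cells, at -1.66, -1.47, -2.11 and -1.05, an order equal to that of the chains. Factors that bind the class II promoters directly ran from -0.32 for *Rfxap* and -0.31 for *Creb1* to 0.07 for *Rfxank*, with *Nfya* at -0.06, *Nfyb* at -0.08 and *Nfyc* at -0.12. Other probes disagreed in sign for *Creb1*, at 0.07, and *Nfyc*, at 0.03, those of *Nfyb* ran from -0.08 to 0.04, and *Rfx5* had no ratio here because its signals lay near the floors. In the interferon γ pathway, which induces *Ciita*, *Ifng* was dim on all 4 arrays. Of that list's 11 genes compared, 1 (*Cxcl10*) was called higher, at 2.75-fold, and the median was 0.36.

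Among 12 costimulators, coinhibitors and T cell receptors of these ligands, 8 were compared over untreated OHC-TRECK mice and 2 were called higher. *Cd28*, the receptor of CD80 and CD86, gave -4.55, -4.53, -4.54 and -2.58, level over the controls and 3.88-fold higher in DT-treated OHC-TRECK mice. *Pdcd1* was well above background in DT-treated OHC-TRECK mice only, at least 3.53-fold higher than in untreated OHC-TRECK, 2.55-fold than in untreated wild-type and 1.87-fold than in DT-treated wild-type mice, bounds that follow the floors of those arrays. *Ctla4*, the other receptor of these ligands, was dim on all 4 arrays. *Cd83*, which keeps class II and CD86 on the surface of presenting cells, was level in the controls, from -0.95 to -0.93, and stood at 0.02 in DT-treated OHC-TRECK mice.

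MHC class I genes were measured beside these. *H2-K1* gave 3.53, 3.48, 3.46 and 4.05, and *B2m*, the light chain of class I, 4.21, 4.19, 4.22 and 4.73. All 14 genes of class I presentation were measured on every array, and all 14 were higher in DT-treated OHC-TRECK than in DT-treated wild-type mice, with a median log2 ratio of 0.31. Of all genes, 52.1% were above 0 there, and *Tap2* (0.04) and *Canx* (0.06) were within the error of the spots. The 3 chains and *Cd74* were higher there too, by 0.10 to 0.15. The class I median for DT-treated over untreated wild-type mice was -0.05, where that of the class II chains and *Cd74* was 0.27, although *H2-D1*, another class I heavy chain, was at 0.22, as *H2-Aa* was, and *H2-K1* had further probes at 0.05 to 0.16 against -0.05 for the probe used. The comparisons share arrays, and the difference between the lists was not tested.

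**Figure D2:**
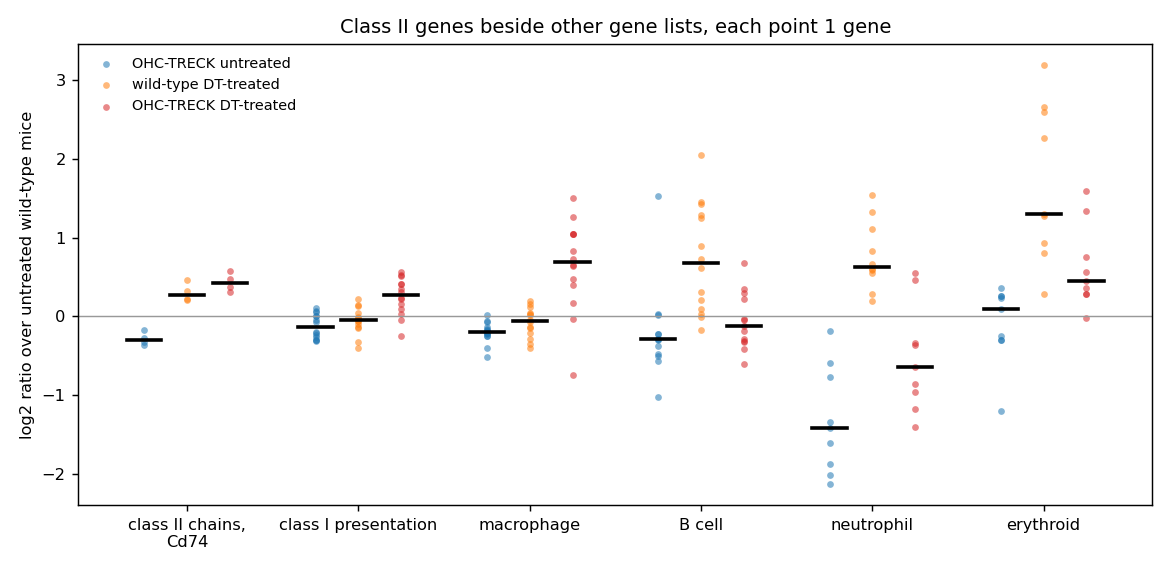
Log2 ratio over untreated wild-type mice of the class II chains with *Cd74* and of the genes of 5 other lists, in untreated OHC-TRECK, DT-treated wild-type and DT-treated OHC-TRECK mice. Points are genes (some ratios are lower bounds) and bars are medians: those of the class II genes were -0.30, 0.27 and 0.42, those of macrophage markers -0.19, -0.06 and 0.69, and those of B cell markers -0.29, 0.67 and -0.12.

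In whole cochleae, more cells of a type and more RNA per cell cannot be told apart, and markers of the cells that carry class II moved as well. Of 15 macrophage markers, 14 were compared over untreated OHC-TRECK mice and 6 were called higher at 2-fold, against 2.71% of all genes. Among them were *Mpeg1* (3.21-fold) and *Cd68* (2.76-fold), and *Cd163* was dim on all arrays. Not all were higher: *Mertk* was at -0.05 and *Itgam* at -0.24, with another *Itgam* probe at 0.53, and *Itgam* was 1.68-fold lower than in untreated wild-type mice, where that other probe disagreed at 0.78. The summed signal of the list, with *Csf1r* the brightest on average, was 28.1, 25.1, 23.0 and 36.0 in multiples of the 75th percentile. Their median for DT-treated over untreated wild-type mice was -0.06, where the chains and *Cd74* had 0.27. In that comparison 0 markers were called in either direction, against 1.55% of all genes higher and 1.12% lower. The part of these cells in the class II values was not tested.

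The summed signal of B cell markers was highest in DT-treated wild-type mice, although *Pax5* and *Cd22*, and by less than the error of the spots *Blnk* and *Fcer2a*, were each highest in another group. In DT-treated wild-type mice 5 of 14 compared were called higher than in untreated wild-type mice, among them *Ms4a1* (4.13-fold) and *Cd79b* (2.73-fold), and 7 of 14 were called lower in DT-treated OHC-TRECK than in DT-treated wild-type mice. Their summed signal without *Ebf1*, the brightest, was 2.63, 4.24, 2.38 and 2.83, and with it 4.98, 6.65, 4.78 and 5.13, and *Blk* was dim on all arrays. The chains and *Cd74* were higher in DT-treated wild-type mice too, by 0.21 to 0.46, but showed no fall from there to DT-treated OHC-TRECK mice. The part of B cells in these values was not tested.

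Markers of other blood cells differed between the pools too. The summed signal of 10 neutrophil markers, with *S100a9* the brightest, was 37.9, 59.2, 13.7 and 22.6, lowest in untreated OHC-TRECK mice like the chains. Of 9 compared, 6 were called lower there than in untreated wild-type mice, against 2.44% of all genes. The summed signal of 9 erythroid markers without *Hba-a1*, the brightest, was 4.88, 10.1, 5.95 and 7.03 (65.3, 83.4, 78.2 and 84.9 with it). Of these markers, 6 of 9 were called higher in DT-treated than in untreated wild-type mice, against 1.55% of all genes. Many markers of marrow and blood thus differed between the groups by more than any member, and their part in the class II values was not tested.

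The 5 genes outside the list whose pattern over the 4 arrays was most like the mean of the chains and *Cd74* were *Mas1*, *Samsn1*, *Gabbr2*, *Clec4a1* and *Il21r*, with root mean square differences of 0.013, 0.017, 0.029, 0.034 and 0.035 on the log2 scale, among 18223 genes measured on every array. The mean pattern itself, centred on 0, was -0.11, 0.19, -0.40 and 0.32. *H2-Aa* and *H2-Ab1* differed from it by 0.034 and 0.032, *H2-Eb1* by 0.060 and *Cd74* by 0.062. These genes make up the mean, so their closeness to it is partly built in. *Cd86* and *H2-DMb1*, which are not part of the mean, differed by 0.11 and 0.24, and 2788 other genes undercut the latter. Likeness over 4 values says little of a gene, and it was not tested.

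Class II promoters carry an X box, bound by the RFX complex, and a Y box, bound by NF-Y, on which *Ciita* acts. The RefSeq promoter table (GRCm38.p6, 250 bases before to 50 after each start) held windows of 6 of the 10 members (*H2-Aa*, *H2-Eb1*, *H2-DMa*, *H2-DMb1*, *H2-Oa* and *Cd80*). They were searched on both strands for the Y box as CTGATTGG and the X box as AGNAACNGA, which 4.10% and 5.35% of 32851 windows hold, and the matches in members do not overlap each other. *H2-Aa*, *H2-Eb1* and *H2-Oa* held the Y box letters, *H2-Eb1*, *H2-DMb1* and *H2-Oa* those of the X box, and *H2-DMa* and *Cd80* neither. A box that departs from these letters would be missed, so no match does not mean no box. In *H2-Eb1* the X box begins 30 bases before the Y box, a spacing looked at after the values were seen and found in 2 windows of all, those of *H2-Eb1* and *H2-Eb2*. The X box letters of *H2-Oa* lie on the other strand, 4 bases before the start and beyond the stretch shown. The stretches from 110 to 21 bases before the start are printed because *H2-Aa* and *H2-Eb1* had nearly the same pattern on the arrays while *H2-DMb1* and *H2-Oa* had others, with the matches in capitals. They lie on the minus strand for *H2-Aa* (chr17:34287844-34287933) and on the plus strand for *H2-Eb1* (chr17:34305757-34305846), *H2-DMb1* (chr17:34153081-34153170) and *H2-Oa* (chr17:34092269-34092358).
*H2-Aa*: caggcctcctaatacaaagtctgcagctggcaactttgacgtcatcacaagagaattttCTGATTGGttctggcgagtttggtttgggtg
*H2-Eb1*: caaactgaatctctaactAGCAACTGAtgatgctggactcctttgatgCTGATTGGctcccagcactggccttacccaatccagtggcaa
*H2-DMb1*: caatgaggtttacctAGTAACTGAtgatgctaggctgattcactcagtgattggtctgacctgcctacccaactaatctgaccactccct
*H2-Oa*: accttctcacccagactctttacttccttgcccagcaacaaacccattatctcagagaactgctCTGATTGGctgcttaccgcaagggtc
A match is a description, not a site or a cause.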

How the data were processed

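Total RNA of cochleae was labelled with Cy3, and each of the 4 groups was hybridised to 1 array of 1 slide. The authors deposited the scanner output of Agilent Feature Extraction 11.5.1.1, in which the intensity of a spot is linear and already corrected for background, with no scaling between arrays. The authors also deposited a value table, which holds this intensity divided by 1 constant per array, with log2 medians of -3.53, -3.55, -3.59 and -3.56, neither on a log scale nor centred, and it served as 1 alternative.

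Control spots and the 149 to 228 outlier spots per array were left out, no spot was saturated, and spots of a probe were averaged. Each array was divided by the 75th percentile over its 39429 probes, as in the study's methods, before log2 was taken, and the methods' later centring on the median of all samples was not applied. Flags of a probe were taken by the majority of its spots (a share above 0.5). The floors were -5.93, -5.48, -6.39 and -5.44. Each gene was read from its probe of highest mean log2 signal among those well above background on 1 array or more. The RefSeq gene table (GRCm38.p6) named 29803 probes through their symbol, 1635 through an accession and 295 through a synonym, while 7696 kept the name of the array files, whose positions are in mm9.

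The members and the 15 lists were chosen with earlier results of these data known. The genes named are the members, list genes called at 2-fold or with the highest or lowest ratio of their list, defining markers, and the 5 genes nearest in pattern. *Rfxank*, *Nfya*, *Nfyb*, *Rfx5*, *Cd83*, *B2m*, *Clec10a* and *Fcer2a* were named after their values were seen. The alternatives were 10 other settings of the floor, filter, background correction (normexp with an offset of 50), scaling, source and choice of probe. The lower fold of 1.5, and its use under each alternative, were chosen after seeing the data. The code that makes the calls was run on simulated data with known answers, which checks the code and not the results. The scripts ran in Python 3.11.15 with pandas 2.3.3, numpy 2.4.6 and matplotlib 3.10.9, and normexp ran in R 4.3.3 with limma 3.58.1. The comparisons share arrays, and qRT-PCR and histology were not analysed here.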

Additional observations from a re-analysis of the deposited data

Results flagged for a closer look

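For 7 members measured on all 4 arrays, the difference between genotypes had opposite signs in untreated and in DT-treated mice, on 1 array per group, and none of these differences was tested. The log2 ratio of OHC-TRECK over wild-type mice was -0.37 untreated and 0.15 DT-treated for *H2-Aa*, a difference of 0.52. It was -0.33 and 0.15 for *H2-Ab1* (difference 0.48) and -0.27 and 0.10 for *H2-Eb1* (difference 0.37). *Cd74* had -0.17 and 0.11 (difference 0.29), and *Cd86* -0.24 and 0.41 (difference 0.65).

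*H2-DMa* had -0.11 and 0.29 (difference 0.40) and *H2-DMb1* -0.03 and 0.20 (difference 0.23). In these last genes the effect of DT also had opposite signs in the genotypes, -0.07 in wild-type and 0.33 in OHC-TRECK mice for *H2-DMa*, and -0.05 and 0.18 for *H2-DMb1*, with the same differences of 0.40 and 0.23. The untreated value of *H2-DMb1* and the wild-type values of both DM genes are within the error of the spots.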

How the results depend on the processing

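Of 250 recomputed values, 237 stayed within the error of the spots for a log2 ratio or within 1.5 times for a count and 13 moved. Every 2-fold count was 0 in the main setting, and 103 of the values that stayed were counts that were 0 again. Settings of the floor, filter and flag leave a ratio unchanged where its probe is well above background on all arrays. Part of the agreement was thus fixed in advance. Without a floor, without a detection filter, or with the weaker flag for detection, *Ciita* gained a ratio in DT-treated over untreated OHC-TRECK mice, which took the median of the members from 0.58 to 0.48, and it became the 1 member called 2-fold lower in DT-treated OHC-TRECK than in untreated wild-type mice. With all probes of a gene averaged, 1 member (*Cd80*) was called 2-fold lower in DT-treated than in untreated wild-type mice. This call rests on a dim signal of its second probe, taken without a floor. At 1.5-fold, a rule chosen after the data were seen, 4 members were higher in DT-treated than in untreated OHC-TRECK mice, 1 was lower in DT-treated than in untreated wild-type mice and 1 lower in untreated OHC-TRECK than in untreated wild-type mice, and both of these lower calls, of *Ciita*, were lost with normexp. For DT-treated over untreated OHC-TRECK mice, normexp took *H2-Aa* from 0.74 to 0.62 and quantile normalization took *H2-Oa* from 0.37 to 0.47. The mean of probes, the second of which was dim in DT-treated mice, took *Cd80* there from 0.14 to -0.32. The ratio of *H2-Ab1* there ranged from 0.79 to 0.82 and that of *Cd74* from 0.70 to 0.76 over the 10 alternatives. Dim signals limit *Ciita*, *H2-Oa* and the second *Cd80* probe, and single pools limit every comparison. No paired analysis was possible because each group has 1 array and no result comes from a test.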

Other observations

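Dendritic cell markers were mixed over untreated OHC-TRECK mice. Between the genotypes at the same treatment most ratios lay below 0, some within the error of the spots, and 0 were called at 2-fold. Of 11, 9 were compared over untreated OHC-TRECK mice, with a median log2 ratio of -0.09. Only 1 was called higher, *Itgax* at 2.54-fold, where 2.71% of all genes were, and *Clec9a* and *Cd209a* were dim on all arrays. Over DT-treated wild-type mice 7 of 8 were below 0 (median -0.14), where 52.1% of all genes were above 0. At 1.5-fold 1 was higher and 1 lower in that comparison, against 4.12% and 4.61% of all genes. In untreated OHC-TRECK over untreated wild-type mice 6 of 8 were below 0 (median -0.10), where 46.4% of all genes were above 0. At 1.5-fold 1 was higher there and 0 lower, against 2.36% and 4.66% of all genes. Their summed signal, nearly all from *Siglech*, was 29.8, 27.7, 27.0 and 24.6, and 1.47, 1.57, 1.55 and 1.36 without it. *Clec10a*, picked after its values were seen, gave -4.48, -3.73, -4.62 and -3.90, high in both DT-treated groups as the class II chains were. Its log2 ratio of DT-treated OHC-TRECK over DT-treated wild-type mice was -0.17, however, where those of the chains were 0.10 to 0.15. *Itgax* had the same order of groups as the chains, while *Flt3*, *Siglech* and *Fscn1* were lowest in DT-treated OHC-TRECK mice.

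Of 8 T cell markers, 5 were compared over untreated OHC-TRECK mice, 0 were called, and *Cd3g*, *Cd3d* and *Cd8a* were dim on all arrays, although *Cd28* was 3.88-fold higher. Their summed signal, with *Cd4* the brightest, was 2.40, 2.01, 1.85 and 2.09. Of 5 monocyte markers, 2 were called higher over untreated OHC-TRECK mice, *Ccr2* at 6.02-fold and *Plac8* at 2.17-fold, where 2.71% of all genes were. By the qRT-PCR of the paper, *Ccr2* was not significantly higher in DT-treated OHC-TRECK mice, whereas *Cd28* and *Mpeg1* were. Over DT-treated wild-type mice 1 of the 5 markers was called higher and 2 lower, against 1.52% and 1.94% of all genes. Their summed signal, with *Fn1* the brightest, was 9.30, 10.5, 5.32 and 6.23.

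Beyond the immune genes, 4 of 6 OHC markers were called lower in DT-treated than in untreated OHC-TRECK mice, 1 of 5 inner and general hair cell markers was (*Pou4f3*, 2.94-fold), and 0 of 9 markers of supporting cells, stria and ganglion were. Of all genes, 1.41% were called lower there. The chains of class II thus lay within 1.75-fold in the comparison in which OHC markers such as *Strc* fell by 3.10 on the log2 scale.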
